A study of Mus musculus with 20 samples.

Results

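The genes *Vwf*, *Thbd*, *Vcam1*, *Icam1*, *Sele*, *Selp*, *Tek*, *Ly6a*, *Eltd1* and *Plvap*, which serve endothelial activation and hemostasis, were followed in the frontal pole of stressed mice. They were found by their names in the scanner tables, which hold 13 probes for these 10 genes among 39429 probes on the array, and every one of these probes was kept. *Vwf*, *Vcam1* and *Plvap* had 2 probes each and the other genes 1. Of the 13 probes, 10 were well above background on each of the 20 arrays in at least 1 channel. The *Sele* probe did not pass on any array, the second *Vwf* probe passed on 3 arrays and the *Icam1* probe on 13, so these 3 probes are called dim here.

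The tissue was a coronal slice of the frontal pole labelled as prefrontal cortex, taken from male Swiss-Webster mice that were single-housed from 12 weeks of age and habituated before stress. There were 4 stress groups: acute stress (a single social encounter), stress on 8 days, stress on 13 days, and stress on 13 days with 5 days of rest after it. Each stress group had a control group of its own that was also single-housed but left undisturbed. In each encounter the mouse was placed as an intruder among group-housed males, and after the last one a day passed before the tissue was taken, except in the group that rested. Stressed and control mice lived in separate rooms, so that the room and the stress cannot be told apart. RNA of 3 mice was pooled, and a stress pool was hybridised on a dual-colour array together with a control pool made from siblings. Every time point had 3 such pool pairs, of which 5 arrays are described here: 1 array of pool pair 1, with stress in the red dye, and both dye orientations of pool pairs 2 and 3. The study hybridised dye swaps for pool pair 1 too, but these were not analysed here.

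Endothelial cells line the vessels and keep blood fluid at rest. When they are activated by cytokines, thrombin or altered flow, they release von Willebrand factor and P-selectin from Weibel-Palade bodies, place E-selectin, VCAM-1 and ICAM-1 on their surface for passing leukocytes, and may lose the anticoagulant thrombomodulin. In the brain this layer also forms the blood-brain barrier, where the adhesion molecules are kept low in health and PLVAP is scarce outside vessels with a fenestrated or immature wall.

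The probes are single-stranded 60-base oligonucleotides, so a signal reports one short stretch of a transcript. Those of 4 probes are shown, in mm9 coordinates given by the scanner tables. The *Vcam1* and *Plvap* oligonucleotides are the second probes of these genes, which can be set against the first ones, and those of *Icam1* and *Tek* are the probes on which the near-zero values of both genes rest. No letter is capitalised because no part of a probe was singled out.
Vcam1 second probe, chr3:115828953-115829012, minus strand: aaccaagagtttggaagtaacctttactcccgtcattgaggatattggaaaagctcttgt
Plvap second probe, chr8:74030739-74030798, minus strand: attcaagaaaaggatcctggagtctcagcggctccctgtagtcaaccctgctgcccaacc
Icam1, chr9:20832290-20832349, plus strand: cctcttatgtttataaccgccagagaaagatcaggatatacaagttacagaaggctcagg
Tek, chr4:94540624-94540683, plus strand: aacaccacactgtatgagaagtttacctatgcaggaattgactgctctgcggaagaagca

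No member passed the test at any time point. A probe was called where limma's moderated test of the 12 pool pairs gave a Benjamini-Hochberg adjusted p under 0.05 over the 39429 probes and the log2 ratio of stress over control exceeded 0.5 in size. Of the 13 member probes 0 were called after acute stress (0.00254% of probes on the array were called), 0 after 8 days of stress (0%), 0 after 13 days of stress (0.0228%) and 0 after 13 days of stress and 5 days of rest (0%). Calls were thus rare on the whole array, and the lowest adjusted p among the members at the 4 time points in turn was 0.462, 1, 0.392 and 0.999. At an unadjusted p under 0.05 stood 2, 3, 3 and 2 member probes at these time points, beside 4.94%, 2.39%, 7.18% and 3.56% of the probes on the array.

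The number of member probes that went the same way in all 3 pool pairs differed between time points, and this difference was not tested. After acute stress 1 of 13 member probes was higher in all 3 stress pools (13.9% of probes on the array) and 6 were lower in all 3 (14.4%). After 8 days 3 were higher (7.5%) and 1 was lower (11.1%), and after 13 days 3 were higher (12.2%) and 1 was lower (14.4%). After the 5 days of rest 0 were higher (8.37%) and 3 were lower (12.6%). Genes with 2 probes can count 2 times here. By the brightest probe of each of the 10 genes, 1 was higher and 4 were lower after acute stress. These gene counts were 3 and 1 after 8 days, 3 and 0 after 13 days and 0 and 3 after rest. The median log2 ratio over the 10 genes, each by its brightest probe, was small at each time point. In the order acute, 8 days, 13 days and rest it was -0.007, 0.01, 0.041 and -0.045, beside medians of 0.0011, -9e-04, -7e-04 and -0.0015 over the array. These medians moved with the processing: the 8-day one was -0.0191 with arrays centred on their median, and the 13-day one was 0.133 to 0.142 with Agilent's own ratio, a normexp offset of 0 or the value table of the authors. The genes with the largest ratios were *Vwf*, *Thbd*, *Ly6a* and *Vcam1*, and the other genes lay closer to 0.

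**Figure D1:**
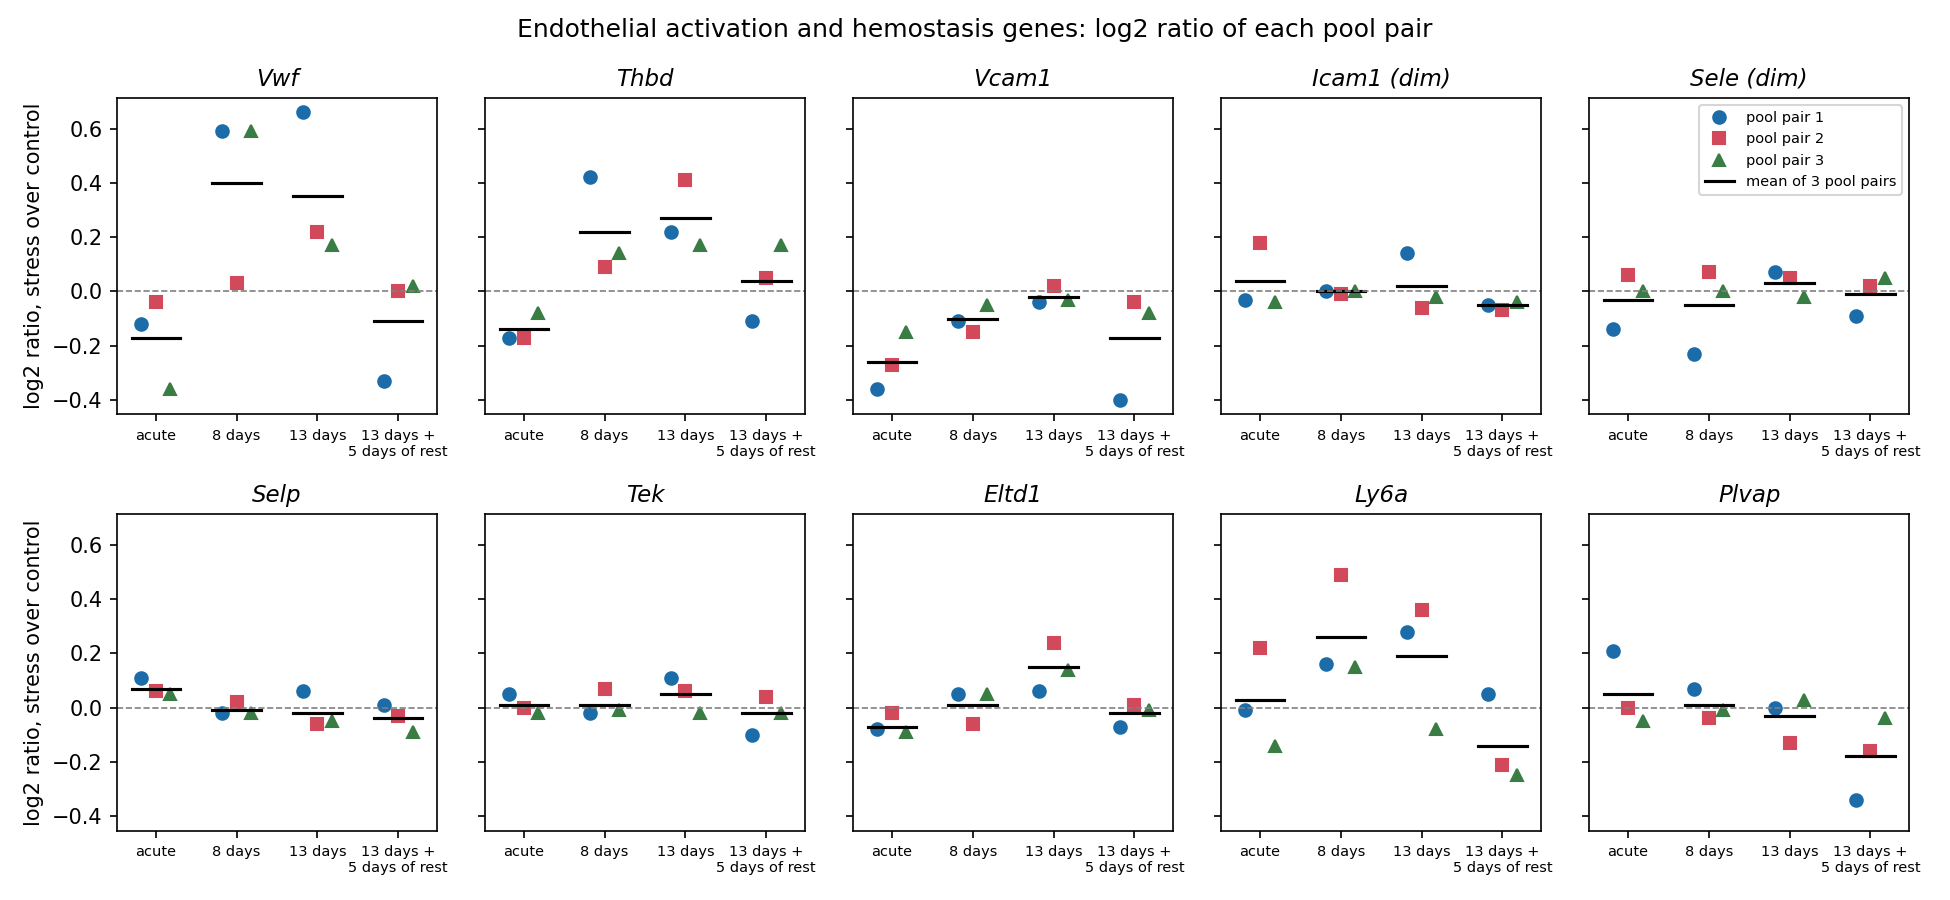
The vertical axis gives the stress/control log2 ratio for the brightest probe of each of the 10 genes at the 4 time points (horizontal axis). Coloured symbols are the 3 pool pairs and black lines their means; the *Vwf* mean is 0.40 after 8 days and 0.35 after 13 days, while *Selp*, *Tek*, *Icam1* and *Sele* means lie between -0.05 and 0.07.

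*Vwf* encodes von Willebrand factor, the large multimeric protein that tethers platelets to a damaged vessel wall and carries factor VIII. After acute stress the normalized signal of its bright probe was 1270, 1270 and 1500 in stress pools 1, 2 and 3, against 1380, 1310 and 1930 in control pools 1, 2 and 3. After 8 days it was 1430, 1200 and 2040 in stress pools, against 949, 1170 and 1360 in control pools. The stress pool was the lower one in each acute pair and the higher one in each 8-day pair, although in the second pair of both time points the difference was very small. The 2 arrays of the second acute pair differed in sign, with log2 ratios of 0.04 and -0.12. After 13 days the signal was 1780, 1380 and 1900 in stress pools, against 1120, 1180 and 1690 in control pools, and after rest 1050, 1350 and 1430 against 1320, 1350 and 1410. Stress and control ranges overlapped at every time point, so the order held within pairs and not across all pools.

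The *Vwf* log2 ratio averaged -0.17 after acute stress (SE 0.12, 95% confidence interval -0.43 to 0.08, n = 3 pool pairs, adjusted p = 0.976). After 8 days it averaged 0.40, a 1.32-fold ratio (interval 0.15 to 0.66, adjusted p = 1). After 13 days it averaged 0.35, a 1.28-fold ratio (interval 0.10 to 0.60, adjusted p = 0.527), and after rest -0.11 (interval -0.36 to 0.15, adjusted p = 0.999). Single pairs weighed heavily on these means. The pairs after 8 days stood at 0.59, 0.03 and 0.59, so that the mean was 0.31 without pool pair 1 or 3 and 0.59 without pool pair 2. After 13 days they stood at 0.66, 0.22 and 0.17, and the mean without pool pair 1 was 0.20. The mean after rest was 0.01 without pool pair 1, and the acute mean was -0.08 without pool pair 3 and -0.04 when the arrays were centred on their median in place of loess. The transcript ID of the dim second probe of *Vwf* was not matched to a gene in the reference. This probe was also below control in the 3 acute pairs (-0.09, -0.15 and -0.08), but did not follow the bright one after 8 and 13 days. Its ratios averaged -0.11, -0.05, -0.04 and 0.00 at the 4 time points, at signals not well above background on most arrays.

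*Thbd* encodes thrombomodulin, the endothelial receptor that turns thrombin into an activator of anticoagulant protein C. After acute stress its signal was 712, 802 and 688 in stress pools, against 801, 904 and 728 in control pools. After 8 days it was 1040, 438 and 867 in stress pools, against 776, 412 and 786 in control pools. Both pools of the second 8-day pair were far dimmer than the other pools, while their ratio was close to that of the third pair. After 13 days the signal was 884, 1040 and 898 in stress pools, against 759, 785 and 800 in control pools, and here the ranges did not overlap. After rest it was 957, 1120 and 795 in stress pools, against 1030, 1080 and 707 in control pools.

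The *Thbd* log2 ratios of the pairs were -0.17, -0.17 and -0.08 after acute stress, 0.42, 0.09 and 0.14 after 8 days, 0.22, 0.41 and 0.17 after 13 days and -0.11, 0.05 and 0.17 after rest. *Thbd* thus had the same order as *Vwf*, below control in the 3 acute pairs and above it in the 3 pairs at 8 and at 13 days. Its mean ratio was -0.14 after acute stress (interval -0.29 to 0.01, adjusted p = 0.976), 0.22 after 8 days (1.16-fold, interval 0.07 to 0.36, adjusted p = 1), 0.27 after 13 days (1.2-fold, interval 0.12 to 0.41, adjusted p = 0.392) and 0.04 after rest (interval -0.11 to 0.18, adjusted p = 0.999). The 8-day mean was 0.12 without pool pair 1, and with centring on the array median in place of loess it was 0.04 and the acute mean was -0.02. In a fit of the 20 arrays with the dye as a term and the pool as a random block, the 13-day ratio was 0.29 with an adjusted p of 0.0426, and with the slide added as a block it was 0.29 with an adjusted p of 0.0515; both stayed under the 0.5 size limit.

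**Figure D2:**
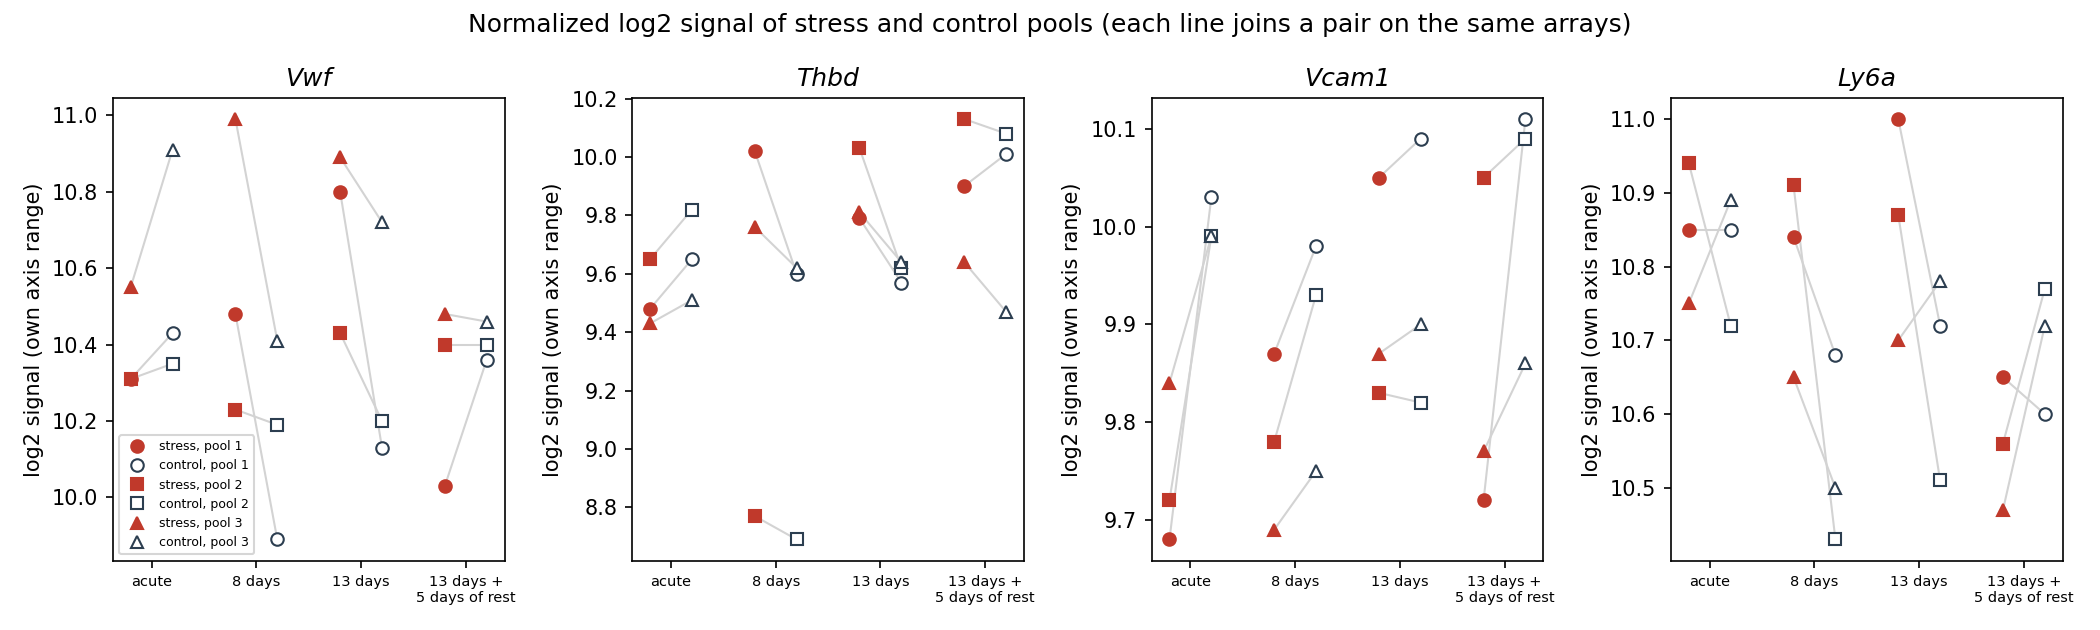
Normalized log2 signal (vertical axis, with its own range in each panel) of *Vwf*, *Thbd*, *Vcam1* and *Ly6a* in stress pools (filled, left) and control pools (open, right) at the 4 time points, with a grey line joining the pools of a pair. For *Thbd* after 13 days the stress pools lie between 884 and 1040 on the linear scale and the control pools between 759 and 800.

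*Vcam1* encodes the immunoglobulin-type adhesion molecule that binds VLA-4 on leukocytes. Of the members it was most often below control, in 11 of 12 pool pairs. Its bright probe had a signal of 819, 843 and 919 in acute-stress pools, against 1050, 1020 and 1020 in control pools, and the ranges did not overlap. After 8 days the signal was 938, 879 and 828 in stress pools, against 1010, 973 and 859 in control pools, and after 13 days 1060, 913 and 938 against 1090, 901 and 958. After rest it was 841, 1060 and 876 in stress pools, against 1110, 1090 and 928 in control pools. Pool pair 2 after 13 days was the one pair of 12 in which stress was higher.

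The mean *Vcam1* log2 ratio was -0.26 after acute stress, a 0.836-fold ratio (SE 0.061, interval -0.39 to -0.13, adjusted p = 0.462). Later means were smaller in size: -0.10 after 8 days (interval -0.23 to 0.03), -0.02 after 13 days (interval -0.15 to 0.11) and -0.17 after rest (interval -0.31 to -0.04), with adjusted p of 1, 0.989 and 0.999. The value after rest came mostly from pool pair 1 at -0.40, since pool pairs 2 and 3 stood at -0.04 and -0.08, and without pool pair 1 the mean was -0.06. Over the 12 pool pairs the ratio averaged -0.14 ± 0.13 (SD, n = 12), which is given with no test because the 4 time points are different treatments and pairs of one number share slides. With the dye as a term over 20 arrays the acute ratio was -0.24 with an adjusted p of 0.0591, and with the slide as a block as well it was -0.24 with an adjusted p of 0.0343. As for *Thbd*, these fits counted the 2 arrays of a pool pair almost as separate samples. When the arrays were centred on their median in place of loess it was -0.13 (adjusted p = 0.94). The second *Vcam1* probe, which lies further from the end of the transcript and had signals of 171 to 214 in stress pools and 174 to 218 in control pools, averaged -0.06, 0.01, 0.01 and -0.07 at the 4 time points. Its 3 acute pairs were also below control, but by 0.09 or less. Over the alternatives run, the acute mean of this second probe ranged from -0.333 to -0.0426, so its size moved with the processing.

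The remaining adhesion molecules gave little or no signal and ratios near 0. *Icam1*, the ligand of the leukocyte integrins LFA-1 and Mac-1, averaged 0.04, 0.00, 0.02 and -0.05 at the 4 time points, and its 12 pairs lay between -0.07 and 0.18. Its probe was well above background on 13 of 20 arrays, so these ratios stem partly from arrays on which it was not. *Sele*, the selectin that only activated endothelium makes, was not well above background in any pool, so its ratios between -0.23 and 0.07 carry no information on its level. *Selp*, the selectin stored in Weibel-Palade bodies and in platelet granules, is spotted 10 times and had narrow intervals at a low signal. It averaged 0.07 after acute stress (0.11, 0.06 and 0.05 in the pairs, interval -0.01 to 0.15), and then -0.01, -0.02 and -0.04. The intervals of *Selp* after 8 and 13 days and after rest did not reach beyond -0.12 and 0.07, whereas the means of *Vwf*, whose protein is stored in the same granule, were 0.40 and 0.35 after 8 and 13 days, with pool pair 2 at 0.03 after 8 days. Their signals differed too. After 13 days *Selp* stood at 221 to 252 in stress pools, against 1380 to 1900 for *Vwf* and 138 to 155 for *Sele*. At a low signal the normexp offset of 50 can make ratios and intervals smaller. Over the alternatives run, an offset of 0 included, the *Selp* mean was -0.0504 to 0.0235 after 8 days. After 13 days it was -0.112 to 0.00474. Neither the difference between the genes nor the part of signal level in it was tested.

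*Tek* encodes the receptor of the angiopoietins, which holds endothelium quiescent. Its ratios averaged 0.01, 0.01, 0.05 and -0.02 at the 4 time points, with intervals that stayed between -0.11 and 0.14. *Eltd1*, an adhesion G protein-coupled receptor of vessels that the reference names *Adgrl4*, had a signal of 285, 314 and 308 in 13-day stress pools, against 274, 266 and 279 in control pools. These groups did not overlap, and the pairs stood at 0.06, 0.24 and 0.14. The mean was 0.15 (1.11-fold, interval 0.06 to 0.24, adjusted p = 0.479). At the other time points it averaged -0.07, 0.01 and -0.02, with the 3 acute pairs between -0.09 and -0.02.

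*Ly6a* encodes Sca-1, a small surface protein with a lipid anchor that in the mouse brain marks endothelium. After 8 days its signal was 1830, 1930 and 1610 in stress pools, against 1650, 1380 and 1450 in control pools, and after 13 days 2040, 1870 and 1670 against 1690, 1460 and 1760. The stress pool was higher in the 3 pairs at 8 days and in 2 of 3 at 13 days. After acute stress the pairs stood at -0.01, 0.22 and -0.14 and after rest at 0.05, -0.21 and -0.25. The mean ratio was 0.03 after acute stress, 0.26 after 8 days (1.2-fold, interval 0.06 to 0.47, adjusted p = 1), 0.19 after 13 days (interval -0.02 to 0.39, adjusted p = 0.729) and -0.14 after rest (interval -0.34 to 0.07, adjusted p = 0.999). Without pool pair 2 the 8-day mean was 0.15. The 13-day mean was 0.10 without pool pair 2 and 0.32 without pool pair 3, and the mean after rest was -0.23 without pool pair 1 and -0.08 without pool pair 3.

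*Ly6a* also had the largest dye effect of the members. In the 8 pool pairs with both orientations its ratio was 0.15 higher on average with stress in red than the mean of the 2 orientations, and pool pair 1, of which only the array with stress in red was analysed here, was not balanced for it. With it taken off, pool pair 1 stood at 0.01 after 8 days and 0.13 after 13 days in place of 0.16 and 0.28. For *Plvap* the effect was -0.10, for *Thbd* -0.09 and for *Eltd1* -0.06, and for the other probes it was 0.04 or less in size. Taking it off raised pool pair 1 of *Thbd* to 0.51 after 8 days and 0.31 after 13 days.

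**Figure D3:**
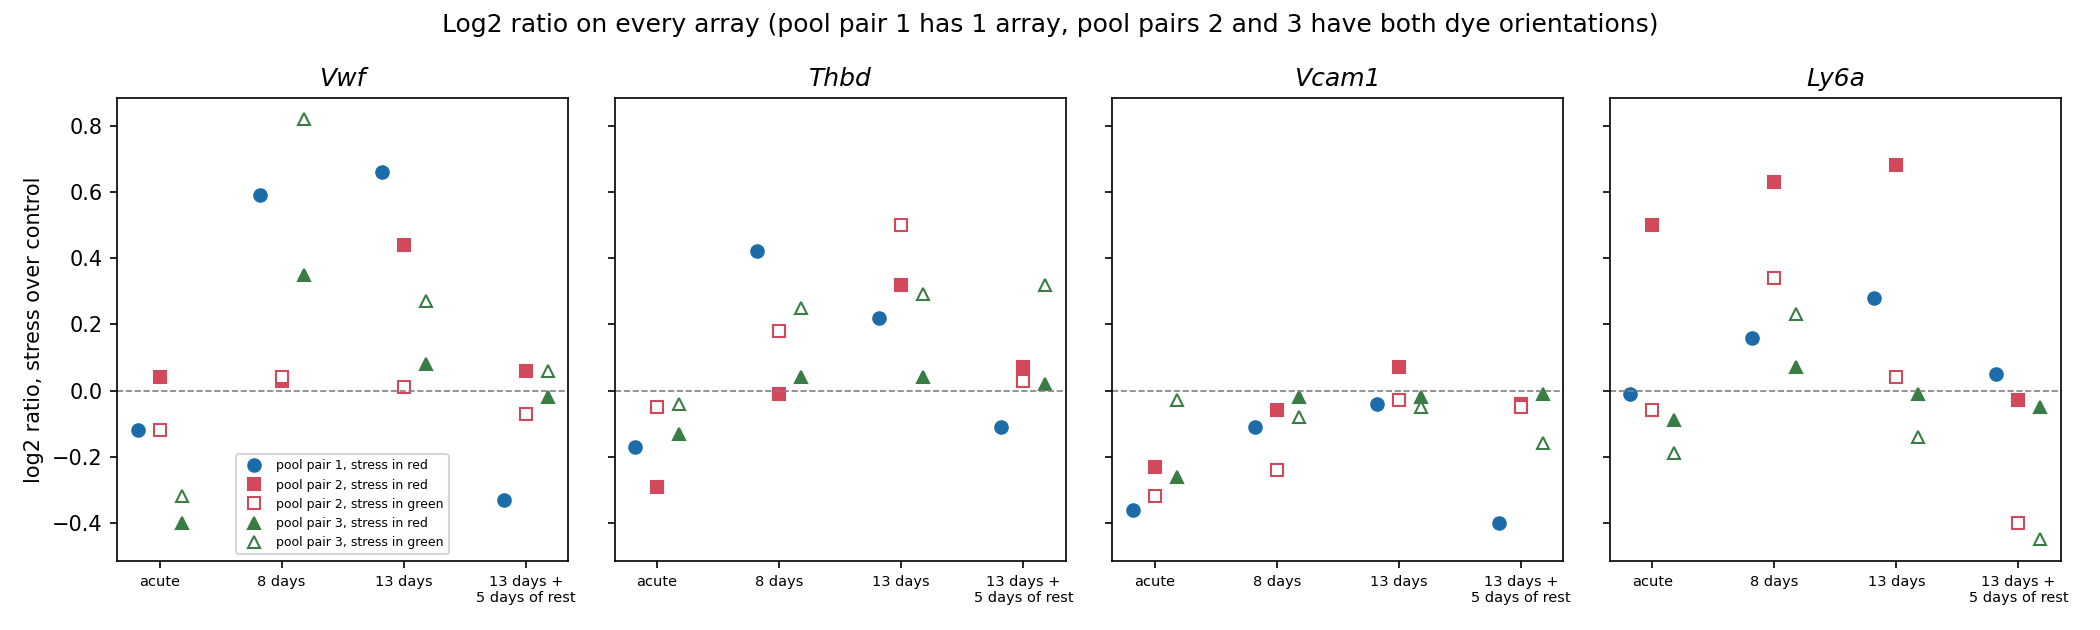
Single-array log2 ratios, stress/control, are on the vertical axis for *Vwf*, *Thbd*, *Vcam1* and *Ly6a* at the 4 time points, with filled symbols for arrays with stress in red and open symbols for stress in green. The 2 arrays of a pair can differ by as much as the pairs do: the third 8-day pair of *Vwf* stood at 0.35 and 0.82, and the second 13-day pair of *Ly6a* at 0.68 and 0.04.

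*Plvap* encodes the protein of the diaphragms that close endothelial fenestrae and caveolae. Its bright probe had a signal of 913, 1100 and 1450 in stress pools after rest, against 1160, 1230 and 1500 in control pools. The mean ratio there was -0.18 (pairs -0.34, -0.16 and -0.04, interval -0.31 to -0.05, adjusted p = 0.999), and without pool pair 1 it was -0.10. The second *Plvap* probe had pairs at -0.27, -0.03 and 0.02 and a mean of -0.09 at this time point. Both probes were thus lowest in pool pair 1. At the earlier time points the bright probe averaged 0.05, 0.01 and -0.03 and the second one 0.03, 0.01 and -0.01.

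Pool pair 1 after rest was low for several members at once, with ratios of -0.33 for *Vwf*, -0.40 and -0.24 for the 2 *Vcam1* probes, -0.34 and -0.27 for the 2 *Plvap* probes and -0.10 for *Tek*. The median over the 10 genes was -0.096 in that pair, against -0.018 and -0.029 in pool pairs 2 and 3. Ratios of pool pair 1 rest on 1 array, and over the whole array their SD was 0.15 to 0.17, against 0.074 to 0.10 in the other pool pairs.

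The change between time points was tested for the 6 contrasts of the 4 time points, and 0 of the 13 member probes were called in any of them: 8 days minus acute stress (0% of probes on the array called), 13 days minus acute stress (0.00254%), rest minus 13 days (0%), 13 days minus 8 days (0%), rest minus acute stress (0%) and rest minus 8 days (0%). For *Vwf* the 8-day ratio exceeded the acute one by 0.58 (interval 0.22 to 0.93, adjusted p = 1) and the 13-day ratio exceeded it by 0.53 (interval 0.17 to 0.88, adjusted p = 0.82). For *Thbd* these differences were 0.36 (interval 0.15 to 0.56, adjusted p = 1) and 0.41 (interval 0.20 to 0.61, adjusted p = 0.365). With centring on the array median in place of loess, the *Thbd* difference between 8 days and acute stress was 0.06. In both genes the acute pairs did not overlap with the pairs at 8 or at 13 days. For the bright *Vcam1* probe 13 days minus acute stress was 0.24 (interval 0.05 to 0.43, adjusted p = 0.995). For *Eltd1* it was 0.21 (interval 0.08 to 0.34, adjusted p = 0.687). The acute and 13-day pairs did not overlap in either, while the second *Vcam1* probe gave 0.07 with overlapping pairs. Rest minus 13 days gave -0.46 for *Vwf*, -0.32 for *Ly6a*, -0.23 for *Thbd* and -0.17 for *Eltd1*, each with an adjusted p of 0.995, and the pairs of *Thbd* and of *Ly6a* overlapped. Rest minus 8 days gave -0.51 for *Vwf*, -0.40 for *Ly6a* and -0.19 for *Plvap*, rest minus acute stress gave -0.23 for *Plvap* and 13 days minus 8 days gave 0.13 for *Eltd1*, each with an adjusted p of 1. Each time point had its own control mice, so these differences hold the spread of 2 sets of controls.

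Genes that work with the members were taken as lists of the same pathways, and 0 genes of the 9 lists were called at any time point. Of 21 measured genes of vessel wall coagulation and fibrinolysis, 5 were higher and 3 lower in all 3 pairs after acute stress, 3 and 3 after 8 days, 7 and 1 after 13 days and 5 and 2 after rest, with list medians of -0.02, 0.03, 0.04 and 0.03. The shares of the array that were higher or lower in all 3 pairs, given above for each time point, are the background of these counts. *Ptgis*, the prostacyclin synthase that makes an inhibitor of platelet aggregation, had ratios of -0.20, -0.15 and -0.13 after acute stress and 0.22, 0.20 and 0.11 after 13 days (adjusted p = 0.422 and 0.209), below control after acute stress and above it after 13 days in each pair, as in *Vwf* and *Thbd*. Unlike these genes, it stood at -0.05, -0.08 and -0.02 after 8 days and at 0.08, 0.15 and 0.13 after rest. *Anxa2*, which gathers plasminogen and its activator on the endothelial surface, stood at 0.48, 0.20 and 0.13 after 8 days (adjusted p = 1) and 0.39, 0.18 and 0.10 after 13 days (adjusted p = 0.517).

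Among 10 genes of Weibel-Palade body cargo and release, 1 was higher and 2 lower in all 3 pairs after acute stress, 2 and 0 after 8 days, 2 and 0 after 13 days and 0 and 2 after rest, with medians of 0.00, 0.03, 0.00 and 0.00. *Angpt2*, the *Tek* ligand held in these granules, averaged -0.16 after acute stress (pairs -0.24, -0.09 and -0.14, adjusted p = 0.547). *Edn1*, the vasoconstrictor endothelin, averaged 0.19 after 8 days through pool pair 1 at 0.48, with 0.10 and 0.00 in the others (adjusted p = 1). Among the 16 angiopoietin and VEGF receptors and ligands, 7 were higher and 0 lower in all 3 pairs after 8 days, with a median of 0.05, and 1 was higher and 5 lower after acute stress, with a median of -0.03. After 13 days 3 were higher and 4 lower, with a median of -0.01, and after rest 0 were higher and 1 lower, with a median of -0.03.

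Of the 24 measured genes of the endothelial NF-kB response, 4 were higher and 3 lower in all 3 pairs after acute stress, 4 and 1 after 8 days, 4 and 1 after 13 days and 3 and 3 after rest, with medians of -0.02, 0.02, 0.04 and 0.01. *Lrg1*, a secreted glycoprotein of venules, stood at 0.70, 0.16 and 0.14 after 13 days (adjusted p = 0.445). *Cxcl10*, an interferon-induced chemokine, averaged -0.61 after acute stress, with pairs at -0.21, -0.72 and -0.89 (adjusted p = 0.894). The 15 other genes of leukocyte adhesion on endothelium had medians of 0.01 at each time point, and the 10 leukocyte ligands had medians between -0.02 and 0.03. The 22 genes of endothelial identity had 0 higher and 7 lower in all 3 pairs after acute stress, 7 higher and 1 lower after 8 days, 9 and 2 after 13 days and 0 and 4 after rest, with medians of -0.03, 0.06, 0.01 and -0.01. The 9 adhesion receptors near *Eltd1* had medians between -0.01 and 0.01, and the 8 measured *Ly6* family genes between -0.04 and 0.00.

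Markers of the cells that the slice can hold were set beside the members, and their part in the ratios was not tested. The tissue check showed the 6 neuronal, 4 astrocyte, 4 oligodendrocyte, 4 microglial and 10 endothelial markers well above background on every array of each time point. In bulk tissue fewer endothelial cells and less RNA per cell cannot be told apart. The median of the 10 endothelial markers was -0.04 after acute stress, 0.08 after 8 days (5 of 10 higher in all 3 pairs, 0 lower), 0.02 after 13 days (5 higher, 1 lower) and -0.01 after rest, and their summed signal after 13 days ranged from 16300 to 18900 in stress pools, against 16700 to 21400 in control pools. *Cldn5*, the main tight junction protein of brain endothelium, averaged -0.22 after 13 days (pairs -0.31, -0.17 and -0.19, adjusted p = 0.323), opposite in sign to *Vwf* and *Thbd*. It was the 1 marker of the 10 that was lower in all 3 pairs. Among the 5 that were higher, *Tie1* stood at 0.28, 0.04 and 0.09 (adjusted p = 0.647) and *Pecam1* at 0.25, 0.04 and 0.01 (adjusted p = 0.738). The median of 6 mural cell markers was 0.09 after 8 days, at 0.23, 0.06 and 0.04 in the pairs.

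Red cell transcripts had far larger ratios than any member after 13 days. The 5 markers, 4 globin genes and *Alas2*, had a median log2 ratio of -0.04 in the acute pairs, 0.73 after 8 days, 1.4 after 13 days and 0.26 after rest, and 5 of 5 were called higher after 13 days. Their summed signal then ranged from 143000 to 214000 in stress pools, against 57700 to 74300 in control pools. By pair, the red cell median after 8 days was 0.60, 0.91 and 0.65, where *Vwf* stood at 0.59, 0.03 and 0.59 and *Thbd* at 0.42, 0.09 and 0.14. After 13 days it was 1.29, 1.56 and 1.24, where *Vwf* stood at 0.66, 0.22 and 0.17 and *Thbd* at 0.22, 0.41 and 0.17, so that the order of the pairs matched that of the red cell markers for *Thbd* after 13 days, and did not for *Vwf* after 13 days or for either gene after 8 days. The part of blood content in these ratios was not tested. Platelets, which also hold *Vwf* and *Selp* products, had 5 markers, of which 2 or 3 were well above background at a time point. Their median was -0.13, -0.05, 0.08 and 0.05 at the 4 time points.

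Meningeal markers were low in the acute pairs in which *Vcam1* was low. The median of 6 markers was -0.30 after acute stress, 4 of 6 were lower in all 3 pairs and 0 were called, and their summed signal was 4480 to 4810 in stress pools, against 5650 to 7430 in control pools. *Col1a2*, a fibrillar collagen chain, averaged -0.53 with pairs at -0.82, -0.27 and -0.49 (adjusted p = 0.238). After 8 days the meningeal median was 0.12, with 0.38, -0.06 and 0.03 in the pairs, while *Vcam1* was below control in each. Of the oligodendrocyte markers 4 of 4 were above control in all 3 acute pairs, with a median of 0.21, and 0 were called. *Mobp* among them averaged 0.49 with an adjusted p of 0.0103, and was not called only because it lay under the size limit of 0.5. Astrocyte markers had a median of -0.14 after acute stress, with 2 of 4 lower in all 3 pairs, and -0.14 after 13 days, with 3 of 4 lower. Microglial markers had 3 of 4 lower and 1 higher in all 3 pairs after 13 days, with a median of -0.07. The astrocyte water channel gene *Aqp4* averaged -0.29 after 13 days (pairs -0.26, -0.41 and -0.20, adjusted p = 0.433).

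**Figure D4:**
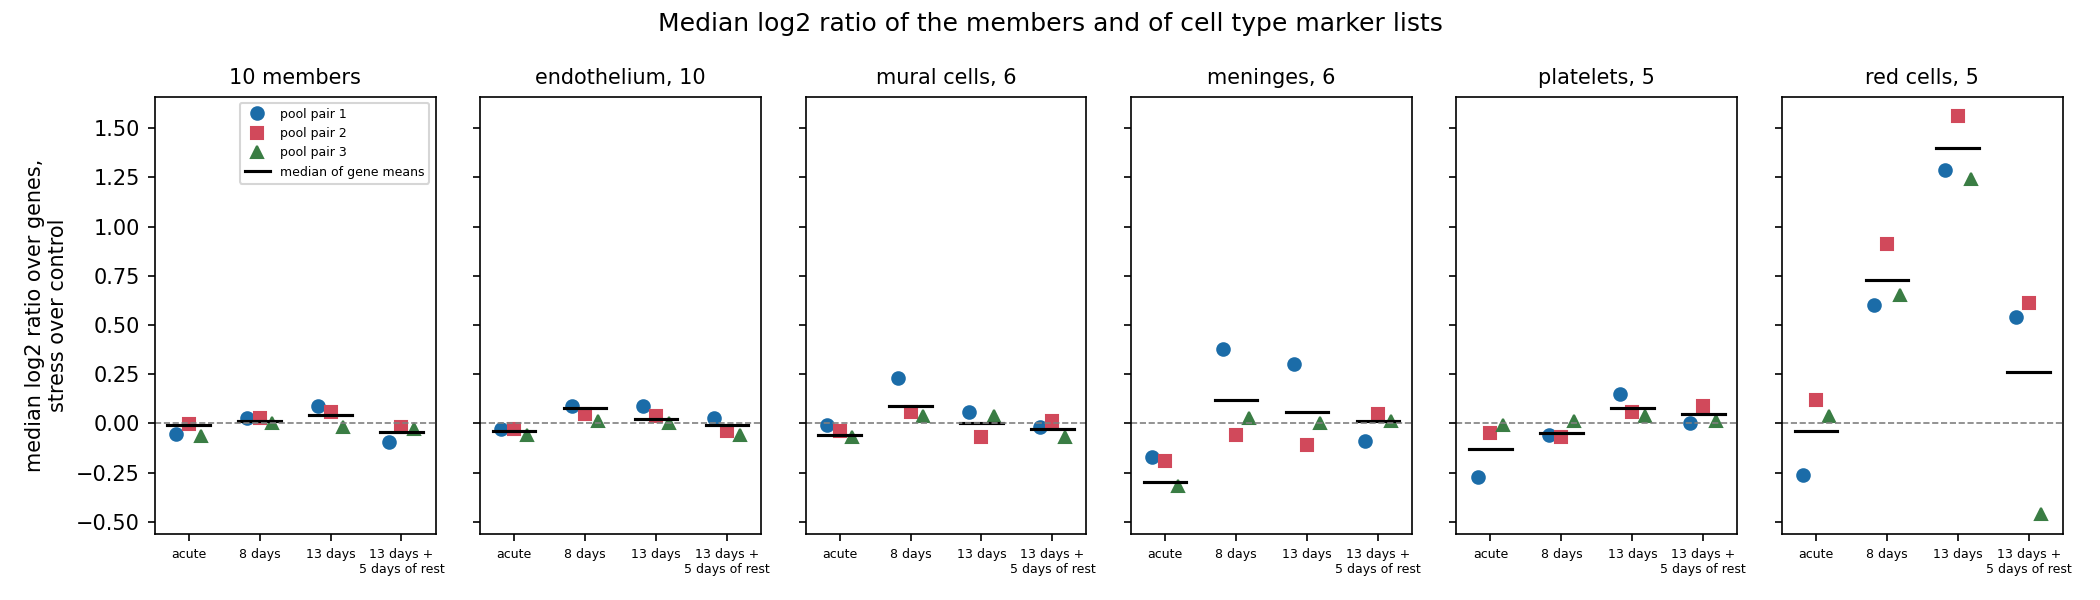
The vertical axis gives the median stress/control log2 ratio of the 10 members and of marker lists of 5 cell types at the 4 time points, with coloured symbols for the 3 pool pairs and a black line for the median of the gene means. The members stay between -0.096 and 0.086 in every pair, whereas the red cell markers reach 1.56 after 13 days.

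For the 4 brightest members, the genes with the most similar ratios were sought among 24731 other bright probes, by Pearson's r over the 8 pool pairs with both dyes. These r are descriptions across pairs that share slides and time points, and the highest of so many candidates. Nearest to *Vwf* were *Gm5637* at 0.94 (0.75 over the 12 pairs), *Sorcs2* at 0.94 (0.37) and *Abi3* at 0.94 (0.71). Nearest to *Vcam1* were *2610002M06Rik* at 0.98 (0.52), *Adamts9* at 0.97 (0.46) and *Hpgd* at 0.97 (0.48), and nearest to *Ly6a* was the glucose transporter gene *Slc2a3* at 0.95 (0.46). Nearest to *Plvap* was *Zfp385a* at 0.96 (0.66). In each case r was smaller over the 12 pairs. Because the genes were chosen by r over the 8 pairs, this drop says nothing of pool pair 1 itself.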

How the data were processed

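Dual-colour Agilent 4x44K v2 mouse arrays measured 12 pairs of stress and control pools on 20 arrays. The scanner tables hold spot intensities that the authors read with Agilent Feature Extraction 10.10.1.1, without normalization. A log10 ratio of the red to the green channel, which that program background-subtracted and dye-normalized, is deposited in the same tables. The value table of the authors holds a log2 ratio of stress over control. Its r with the ratios computed here was 0.77 to 0.97 over probes, its column medians were -0.023 to 0.028, and it was made with normexp, loess and Aquantile at an offset not given in the sources used here.

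Here limma 3.58.1 (R 4.3.3) was run on the mean intensities: normexp background correction with an offset of 50, loess within arrays, in which control spots and outliers had a weight of 0, and Aquantile between arrays. Spots of a probe were averaged, dye swaps were turned, and the arrays of a pool pair were averaged. One fit over the 12 pool pairs held a coefficient for each time point (lmFit and eBayes), and p-values were adjusted by Benjamini-Hochberg over 39429 probes. Per array, 70.5% to 74.3% of probes passed the scanner's test for signal above background in at least 1 channel, and 3 pool pairs per time point limit the precision. Across probes, the original and the swapped array of a pair, turned the same way, correlated at -0.36 to -0.092. The direction was taken from the labelled dyes, and pool pair 1, analysed here in 1 orientation, keeps its dye effect. Pool pairs were separate sets of mice, and pool pair 3 was scanned on another day than pool pairs 1 and 2. The fit was tested on simulated data.

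The members and gene lists were chosen with earlier results of these data known. Every member probe was described. Of a list, a gene was named where it was called or had 1 of the 2 largest moderated t of its list at a time point, on a probe well above background there; for likeness, the nearest 3 probes of the 4 brightest members were computed. Genes with 2 probes were represented by the brighter one in medians. Probe accessions were matched to gene names of the GRCm38.p6 annotation, of which 12 of 13 matched.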

Additional observations from a re-analysis of the deposited data

How the results depend on the processing

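Under every alternative run, 0 member probes were called at each time point and in these 3 contrasts: 8 days minus acute stress, 13 days minus acute stress and rest minus 13 days. Of 91 single member values, 41 changed sign under at least 1 alternative. The brighter *Vwf* probe and *Thbd* after 8 and 13 days, and the brighter *Vcam1* probe after acute stress and after 8 days, kept their sign under each; the second probes of *Vwf* and *Vcam1* after 8 days did not. Adjusted p fell below 0.05 for *Thbd* after 13 days with the dye as a term (0.0426) and for *Vcam1* after acute stress with the slide as a block (0.0343), without the size limit being met. With the replicate block over the 12 pools the adjusted p was 0.742 for *Vwf* after 8 days, 0.183 for *Thbd* after 13 days and 0.148 for *Vcam1* after acute stress. Pools of the same number correlated at -0.18 to 0.54, with medians of 0.42, 0.16 and 0.22 for numbers 1, 2 and 3. The median was -0.09 for pools of different numbers. Pools of the same number share slides, but were not taken as paired in the main fit, and the block called 0 members. Over the array, calls after 13 days ranged from 0 to 15 against 9, after acute stress from 0 to 3 against 1, after 8 days from 0 to 4 against 0, after rest from 0 to 2 against 0, and for these contrasts, in that order, up to 3, 11 and 7 against 0, 1 and 0.

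The median over the members after acute stress was -0.0405 without background correction and -0.0563 with Agilent's own ratio. After 8 days it was 0.0411, 0.0369 and, with median centring of each array, -0.0191. After 13 days it was 0.135 at a normexp offset of 0, 0.133 with Agilent's own ratio, 0.142 in the value table of the authors and 0.0987 over probes well above background on every array. After rest it was -0.0872 with median centring. Leaving out single pool pairs gave -0.0695 to -0.00725, 0.01 to 0.0153, 0.0184 to 0.0715 and -0.0508 to -0.0273 at the 4 time points. With the dye effect taken from pool pair 1, an alternative chosen after seeing the data, 5 member probes in place of 3 were lower in all 3 pairs after rest. The causes were not tested. The dim probes limit what can be said of *Sele*, *Icam1* and the second *Vwf* probe.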

Other observations

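Neutrophil markers set pool pair 1 of acute stress apart from the other pairs. Their median log2 ratio there was -3.37, against 0.01 and 0.21 in pool pairs 2 and 3, and their summed signal in the acute groups ranged from 1510 to 2110 in stress pools and from 1570 to 12500 in control pools. In the same pair the platelet marker *Pf4* stood at -0.81 and the collagen gene *Col1a1* at -2.06, and among the members *Vcam1* stood at -0.36 and *Plvap* at 0.21. *Pf4*, which macrophages also make, and *Col1a1* were singled out after their values were seen.

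None of the following genes passed the test. *Cd93*, a C-type lectin-like receptor of endothelium, averaged -0.18 after acute stress (pairs -0.26, -0.17 and -0.13, adjusted p = 0.879) and 0.16 after 8 days (pairs 0.15, 0.22 and 0.10, adjusted p = 1). *Cxcl12*, a chemokine of brain endothelium, averaged 0.21 after rest (pairs 0.24, 0.31 and 0.07, adjusted p = 0.999). *Tfpi*, the inhibitor of the tissue factor pathway, averaged 0.14 after rest (pairs 0.20, 0.17 and 0.04, adjusted p = 0.999).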
